A study of Mus musculus with 17 samples.

Results

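Limb bud RNA from 4 libraries labelled Dup-LΔBor was compared with that from 3 libraries labelled ΔBor, 7 of the 17 samples of a mouse study of structural variants at the Sox9-Kcnj locus of chromosome 11. All 7 came from limb buds at stage E12.5 and were sequenced as polyA RNA. The ΔBor allele removes a domain boundary and is present in 2 samples labelled heterozygous (het) and 1 labelled homozygous (hom). Dup-LΔBor joins the same kind of deletion to the duplication called Dup-L, so both arms carry a boundary deletion and the comparison addresses what the added duplication goes with. The labels give neither the zygosity of Dup-LΔBor, nor the limb taken, nor whether replicates came from separate embryos, so p-values reflect only how these libraries spread, and that spread may be technical. Dup-LΔBor libraries are called R2 to R5 and ΔBor hom R3 after their column headers, which could not be matched to the replicate numbers of the labels, and the Dup-LΔBor headers hold a genotype string that joins Sox9, Dup, LacZ and Del.

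Boundaries of topologically associating domains, which are bound by the factor CTCF, keep the enhancers of one domain from acting on the genes of the next. Sox9 encodes the transcription factor that directs limb mesenchyme into cartilage, and its neighbours in the next domain, Kcnj2 and Kcnj16, are genes for potassium channels of the inward-rectifier class. Deleting a boundary lets neighbouring domains merge, and a duplication that spans one can form a new domain.

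The header library numbers fall into 2 ranges. The 3 ΔBor libraries and WT R1 and R2 belong to the first range, and the 4 Dup-LΔBor libraries and WT R3 and R4 to the second, so genotype and range cannot be told apart from these 7 libraries alone. Each gene is therefore given by its direct difference (Dup-LΔBor minus ΔBor, log2 scale) and by its WT-adjusted difference, which subtracts the difference of WT R3 and R4 from WT R1 and R2. The direct difference comes from an edgeR quasi-likelihood fit of 17655 genes with WT as 1 group. The WT-adjusted difference comes from a separate fit of the same genes, with WT split by range. Both used Benjamini-Hochberg adjustment and a threshold of 0.05. A gene is said to rise or fall only where it passed in both comparisons with the same sign. Levels are in CPM, the counts per 1000000 counts of each library's TMM-scaled total.

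Library totals ran from 37126548 to 48937748 counts in Dup-LΔBor, from 37937745 to 38580632 in ΔBor and from 34486256 to 53711742 in WT. Pitx1, which marks hindlimb, stood at 40.5 to 73.9 CPM in Dup-LΔBor and 39.9 to 116 CPM in ΔBor. It stood at 59.8 and 70.1 CPM in WT R1 and R3 and 1.83 CPM in both WT R2 and WT R4. No library of either arm was therefore Pitx1-low. Each WT range paired a Pitx1-high with a Pitx1-low library, so limb type entered the spread of the WT pairs. With a WT library left out, range and Pitx1 level cannot be told apart in WT. Xist, the RNA of the inactive X chromosome, reached 2869.6 CPM in ΔBor hom and 2265 CPM in WT R1 and at most 1.005 CPM in the other libraries of these 3 genotypes. Dup-LΔBor R4 and R5 share a header library number, but their counts differed by a mean chi-square of 27.3 per gene, within the 6.28 to 35.5 of the other pairs of that group, and they were kept as separate samples. GC content and transcript length together accounted for 25% of the variance of the direct difference across 13201 genes and for 20% of that of the WT-adjusted difference, whose median ran from -0.27 in the fifth of genes poorest in GC to 0.273 in the richest. The part of GC content in the gene results was not tested beyond the fit with GC and length offsets, which is quoted beside each gene described whose call it ends.

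At the Sox9-Kcnj locus no protein-coding gene passed in both comparisons. Kcnj2 stood at 69.4, 55.2, 58.4 and 45.7 CPM in Dup-LΔBor R2 to R5, 44.5 and 30.4 CPM in ΔBor het and 63 CPM in ΔBor hom, and 26.2, 21.7, 22.2 and 17.6 CPM in WT R1 to R4. All 7 libraries with a boundary deletion lay above every WT library, but ΔBor hom was higher than 3 of the 4 Dup-LΔBor libraries, so the arms overlapped. The direct difference of Kcnj2 was log2 0.36 (SE 0.17, edgeR adjusted p 0.0993) and the WT-adjusted one log2 0.62 (SE 0.27, edgeR adjusted p 0.207). Against ΔBor hom alone the direct value of Kcnj2 was -0.14, and against ΔBor het alone 0.61 (SE 0.19, edgeR adjusted p 0.0269), with ΔBor hom above ΔBor het by 0.75 (SE 0.26, edgeR adjusted p 0.999). The direct difference also passed with GC and length offsets (0.74, edgeR adjusted p 0.00508) and without Dup-LΔBor R5 (0.46, edgeR adjusted p 0.04), and was 0.11 without ΔBor het R2. After WT adjustment Kcnj2 passed in none of 21 alternatives. The comparison of hom with het called 0 of 17655 genes in edgeR, with 505 at an unadjusted p under 0.05.

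Sox9 stood at 184, 160.4, 127 and 140.1 CPM in Dup-LΔBor R2 to R5, 187 and 183 CPM in ΔBor het and 183 CPM in ΔBor hom, and 162, 161, 136 and 124 CPM in WT R1 to R4. The ΔBor values were nearly level, whereas Dup-LΔBor spread from 127 to 184 CPM and overlapped them. Its direct difference was log2 -0.27 (SE 0.13, edgeR adjusted p 0.0996), and after WT adjustment it was log2 0.04 (SE 0.18, edgeR adjusted p 0.913).

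The noncoding RNA gene 2610035D17Rik, which lies between Kcnj2 and Sox9, was the only one of 6 tested locus genes to rise. It was read at 22.8, 21.9, 22.3 and 22.1 CPM in Dup-LΔBor R2 to R5, 15 and 11.6 CPM in ΔBor het and 16.2 CPM in ΔBor hom, and 16.3, 17, 10.8 and 15.9 CPM in WT R1 to R4, and all 4 Dup-LΔBor values lay above all ΔBor and all WT values. The direct difference was log2 0.65 (SE 0.15, edgeR adjusted p 0.00305) and the WT-adjusted difference log2 0.97 (SE 0.22, edgeR adjusted p 0.0386). 2610035D17Rik lost its WT-adjusted call without Dup-LΔBor R2, Dup-LΔBor R3, Dup-LΔBor R4, WT R1, WT R2 or WT R3 (log2 0.70 to 1.27, edgeR adjusted p up to 0.138). With GC and length offsets its adjusted p was 0.0619.

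Slc39a11, a zinc transporter gene beside Sox9, differed by log2 -0.26 directly and -0.38 WT-adjusted (edgeR adjusted p 0.04 and 0.151). Map2k6, a kinase gene beyond Kcnj16, differed by log2 -0.09 directly and 0.20 WT-adjusted (edgeR adjusted p 0.514 and 0.434), and the noncoding gene BC006965 by log2 -0.72 directly and -0.48 WT-adjusted (edgeR adjusted p 0.102 and 0.664). Kcnj16 was too low to test, with 0, 2, 1 and 1 counts in Dup-LΔBor, 0, 0 and 1 in ΔBor and 1, 3, 0 and 1 in WT. Thus the second channel gene of the domain was near 0 in each library. In the whole comparison 40.7% of genes passed directly and 2.31% after WT adjustment. After adjustment 3849 of 17655 genes were at an unadjusted p under 0.05, and DESeq2 called 1250 of 15908 (7.86%). List counts at that unadjusted p or by DESeq2, here and below, are to be read beside these shares. Against those shares, 1 of 12 tested inward-rectifier channel genes passed directly, Kcnj14, with log2 0.76 directly and 0.45 WT-adjusted (edgeR adjusted p 0.0173 and 0.492, and 0.0913 directly with GC and length offsets), and none after adjustment (2 at an unadjusted p under 0.05, 0 by DESeq2). Among 20 flanking genes of chromosome 11, 6 were higher and 1 lower directly and 0 passed after adjustment (2 at an unadjusted p under 0.05, 1 by DESeq2).

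**Figure D1:**
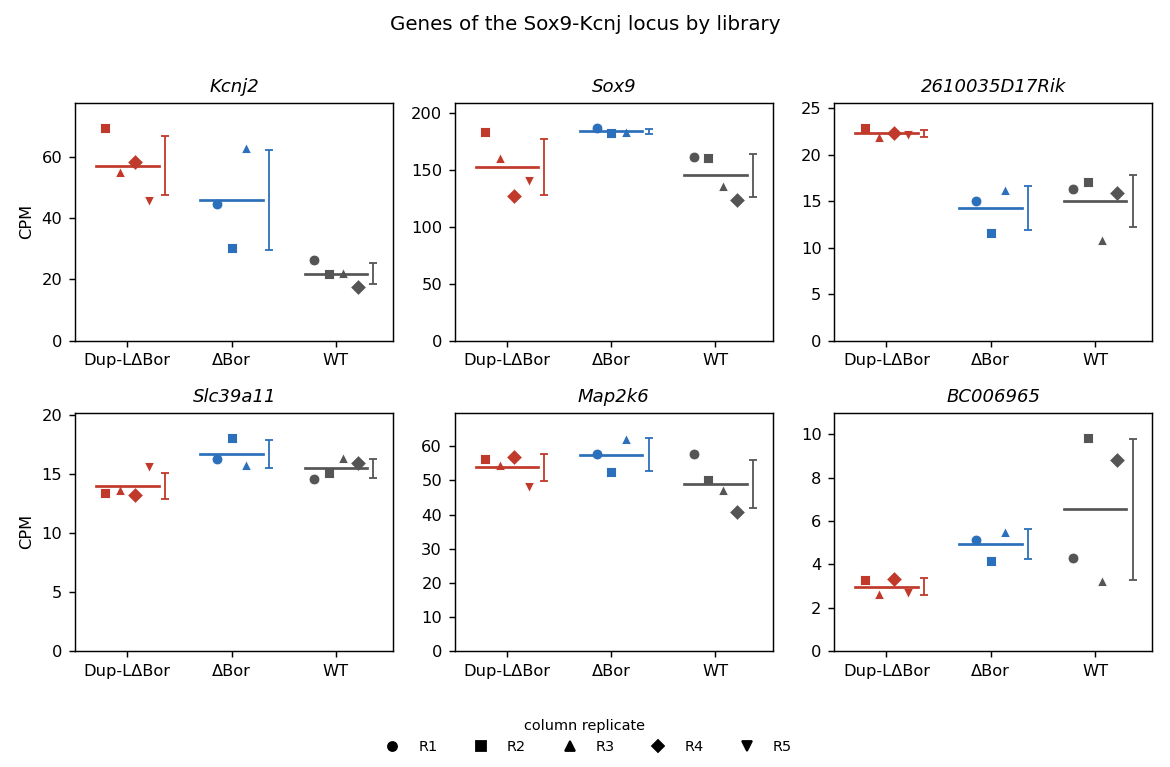
Levels in CPM of 6 genes of the Sox9-Kcnj locus in each library of Dup-LΔBor, ΔBor and WT (points shaped by column replicate, lines for means, bars for SD). Kcnj2 lies above WT in all 7 libraries with a boundary deletion and overlaps between the 2 mutant groups, while 2610035D17Rik does not.

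Across all genes, 3571 (20.2%) were higher and 3621 (20.5%) lower in Dup-LΔBor by the direct difference. WT R3 and R4 differed from WT R1 and R2 at 690 genes (3.91%). After WT adjustment 218 genes (1.23%) passed as higher and 190 (1.08%) as lower, and 389 (2.20%) passed in both comparisons with the same sign, 210 higher (1.19%) and 179 lower (1.01%). For 8187 genes (46.4%) the 4 Dup-LΔBor and 3 ΔBor libraries did not overlap, with Dup-LΔBor higher for 23.7% and lower for 22.6% of all genes.

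The 389 genes differed in which arm stood apart from WT. For 117 only the ΔBor libraries lay outside the range of the 4 WT libraries on 1 side. For 69 only the Dup-LΔBor libraries did, for 159 both arms and for 44 neither. ΔBor has fewer libraries than Dup-LΔBor and so falls wholly outside a range more readily, which makes 117 and 69 unlike counts. The shares over all genes were not computed. Slc1a5, which encodes a glutamine transporter, is an example of the third kind, at 59.1, 61.3, 58.3 and 51.9 CPM in Dup-LΔBor R2 to R5, 14.4 and 17.1 CPM in ΔBor het and 16.7 CPM in ΔBor hom, and 51.6, 50.1, 47.3 and 46.1 CPM in WT R1 to R4. The ΔBor libraries were far below WT and the Dup-LΔBor libraries just above it, with log2 1.84 directly and 1.97 WT-adjusted (edgeR adjusted p 5.70e-08 and 1.14e-05). Hddc3, which encodes a metal-dependent phosphohydrolase, is an example of the first kind and was the reverse in sign, at 12.3 to 14.8 CPM in Dup-LΔBor, 35.6 to 41.7 CPM in ΔBor and 11.6 to 14 CPM in WT, with log2 -1.49 directly and -1.62 WT-adjusted (edgeR adjusted p 2.41e-07 and 5.32e-05). Glo1, the glyoxalase that clears methylglyoxal, was likewise highest in ΔBor, with Dup-LΔBor below WT, at 84.5 to 94.5 CPM in Dup-LΔBor, 180.4 to 205 CPM in ΔBor and 99.6 to 148 CPM in WT, with log2 -1.08 directly and -1.56 WT-adjusted (edgeR adjusted p 4.84e-05 and 1.14e-05). These 3 genes were chosen after their values were seen, and each stayed past the threshold without each library in turn.

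**Figure D2:**
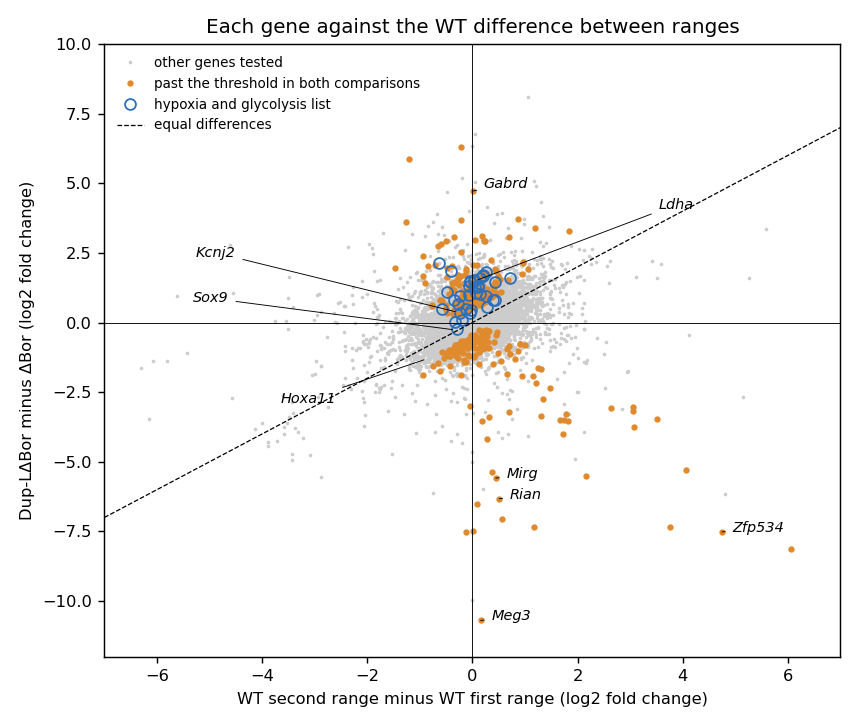
Each tested gene by its difference between the WT ranges (x axis, log2 fold change) and its direct difference between Dup-LΔBor and ΔBor (y axis, log2 fold change), with the 389 genes past the threshold in both comparisons in orange and the hypoxia and glycolysis list ringed. Meg3, Rian and Mirg lie far below the line of equal differences, Hoxa11 near it, and 1 gene lies outside the axes.

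Of the 12 largest lower differences among the genes eligible for naming, 4 came from the imprinted Dlk1-Dio3 cluster of chromosome 12, with Meg3 first by the direct difference. In this cluster the maternal chromosome expresses noncoding RNAs, among them Meg3 (also called Gtl2), Rian and Mirg, which host snoRNAs and miRNAs, and the paternal chromosome expresses the protein-coding genes Dlk1, Rtl1 and Dio3. A methylated intergenic control region on the paternal chromosome keeps the maternal RNAs silent there. The promoter of Meg3 is shown because almost no Meg3 RNA was counted in Dup-LΔBor. The window runs from 250 bases before to 50 bases after the RefSeq start, on the plus strand of GRCm38.p6, at chr12:109540746-109541045, with the palindrome TGACGTCA, a cAMP response element, in capitals.

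Meg3 promoter: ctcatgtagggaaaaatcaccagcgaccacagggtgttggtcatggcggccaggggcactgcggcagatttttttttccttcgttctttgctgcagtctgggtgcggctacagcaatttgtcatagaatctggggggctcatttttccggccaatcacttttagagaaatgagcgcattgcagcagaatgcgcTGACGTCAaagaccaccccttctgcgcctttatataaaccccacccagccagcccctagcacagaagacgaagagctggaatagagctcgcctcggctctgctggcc

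That motif was found in the 250 upstream bases of 508 of 32851 RefSeq promoter windows (1.55%), and a match is a description of the letters only.

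Meg3 gave 7, 7, 5 and 11 counts in Dup-LΔBor R2 to R5, against 11333 and 14247 in ΔBor het, 8244 in ΔBor hom and 13110 to 38741 in WT. In CPM these were 0.146, 0.187, 0.102 and 0.292 in Dup-LΔBor and 299.8 and 372 CPM in ΔBor het and 227 CPM in ΔBor hom. Every Dup-LΔBor library was therefore far below every other library, at a mean of 0.0606% of the ΔBor level and 0.0362% of the WT level. The direct difference was log2 -10.70 (SE 0.58, edgeR adjusted p 1.73e-06) and the WT-adjusted difference log2 -10.85 (SE 0.88, edgeR adjusted p 3.69e-04).

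Rian, the next RNA of the maternal series and the host of C/D box snoRNAs, stood at 5.61, 4.48, 5.29 and 2.92 CPM in Dup-LΔBor R2 to R5, 406 and 391.6 CPM in ΔBor het and 319.8 CPM in ΔBor hom, and 283, 518, 417 and 723 CPM in WT R1 to R4. A mean of 1.23% of the ΔBor level was left, with a direct difference of log2 -6.33 (SE 0.31, edgeR adjusted p 1.42e-07) and a WT-adjusted one of log2 -6.84 (SE 0.44, edgeR adjusted p 2.61e-05). Mirg, the host of a run of miRNAs, stood at 0.271, 0.267, 0.346 and 0.159 CPM in Dup-LΔBor R2 to R5, 13.7 and 16 CPM in ΔBor het and 9.75 CPM in ΔBor hom, and 11.2, 25.2, 17.3 and 32.3 CPM in WT R1 to R4. Here 1.98% of the ΔBor level was left, with log2 -5.59 directly and -6.03 WT-adjusted (edgeR adjusted p 1.94e-06 and 1.71e-04). Meg3, Rian and Mirg passed in all 18 alternative settings of the direct and all 21 of the WT-adjusted comparison.

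The small RNA loci within the cluster went the same way. Summed over 7 snoRNA loci the counts were 11, 0, 5 and 0 in Dup-LΔBor, 784 and 695 in ΔBor het, 566 in ΔBor hom and 416 to 1002 in WT. Of these loci 5 were tested and all 5 fell, and 4 of the 6 with any count in the 7 libraries had none in Dup-LΔBor. AF357359, one of them, stood at 0 to 0.23 CPM in Dup-LΔBor, 13.9 to 18.9 CPM in ΔBor and 6.4 to 16.1 CPM in WT and fell with log2 -7.51 directly and -7.38 WT-adjusted (edgeR adjusted p 7.33e-06 and 0.00156). AF357425_gene, for which no chromosome was matched, had a like pattern, at 0.0407 to 0.0835 CPM in Dup-LΔBor, 5.33 to 7.3 CPM in ΔBor and 3.86 to 7.78 CPM in WT, with log2 -6.51 directly and -6.59 WT-adjusted (edgeR adjusted p 1.42e-07 and 3.23e-05). It shares its name with the snoRNA locus AF357425 of the cluster, which had 0 counts in all these libraries. The snoRNA sums leave out AF357425_gene, and whether its reads come from that locus was not tested.

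For miRNA genes the table holds counts of polyA RNA over the locus and not mature miRNA. All 61 miRNA genes of the cluster in the count table had a mature sequence in RefSeq, 20 had any count in the 7 libraries, and 15 of those 20 had none in Dup-LΔBor. Summed counts were 4, 0, 1 and 5 in Dup-LΔBor, 42 and 47 in ΔBor het, 25 in ΔBor hom and 37 to 178 in WT. The 2 loci with enough counts to test, Mir377 and Mir3072, yield these mature miRNAs, printed with the seed (bases 2 to 8) in capitals.

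mmu-miR-377-5p: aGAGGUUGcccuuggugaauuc
mmu-miR-377-3p: aUCACACAaaggcaacuuuugu
mmu-miR-3072-5p: aGGGACCCcgagggagggcagg
mmu-miR-3072-3p: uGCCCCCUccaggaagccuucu

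The 4 seeds differ from one another. Mir377 had no count in any Dup-LΔBor library and 0.138 to 0.238 CPM in ΔBor, with a direct edgeR adjusted p of 0.00545 and a WT-adjusted one of 0.127. Mir3072 was read at 0 to 0.0417 CPM in Dup-LΔBor, 0.0826 to 0.317 CPM in ΔBor and 0.171 to 1.44 CPM in WT, with log2 -3.30 directly and -3.18 WT-adjusted (edgeR adjusted p 0.047 and 0.255). Both loci were lower directly and neither passed after WT adjustment.

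Dlk1, the paternally expressed gene for a Notch-related transmembrane protein of progenitor cells, was higher directly. It was read at 266, 166, 203 and 138 CPM in Dup-LΔBor R2 to R5, 49.1 and 111 CPM in ΔBor het and 52.3 CPM in ΔBor hom, and 77.5, 122, 128 and 146 CPM in WT R1 to R4. All 4 Dup-LΔBor libraries lay above all 3 ΔBor libraries, but Dup-LΔBor R5 lay below WT R4. The direct difference was log2 1.48 (SE 0.30, edgeR adjusted p 0.00249) and the WT-adjusted difference did not pass, at log2 1.01 (SE 0.48, edgeR adjusted p 0.246). Rtl1, a retrotransposon-derived gene of the placenta, differed by log2 0.59 directly and -0.24 WT-adjusted (edgeR adjusted p 0.224 and 0.838), and Dio3, the deiodinase that inactivates thyroid hormone, by log2 0.30 directly and 0.52 WT-adjusted (edgeR adjusted p 0.408 and 0.52).

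Outside the imprinted genes, 5 of 14 flanking genes were higher and 3 lower directly (57.1%, beside 40.7% of all genes). After WT adjustment 1 passed, beside 2.31% of all genes. That gene was Degs2, which encodes a sphingolipid desaturase and hydroxylase, at 27.6, 25.5, 28.3 and 27.3 CPM in Dup-LΔBor R2 to R5, 11.5 and 11.1 CPM in ΔBor het and 10.02 CPM in ΔBor hom, and 14.2, 16.7, 16.2 and 24.7 CPM in WT R1 to R4. It rose by log2 1.32 directly and 0.92 WT-adjusted (edgeR adjusted p 5.51e-05 and 0.0328). Degs2 lost its WT-adjusted call without ΔBor het R1, ΔBor hom, Dup-LΔBor R2, Dup-LΔBor R3, Dup-LΔBor R4, WT R2 or WT R3 (log2 0.63 to 1.26, edgeR adjusted p up to 0.111). The WT-adjusted p of Degs2 was 0.0806 with GC and length offsets.

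**Figure D3:**
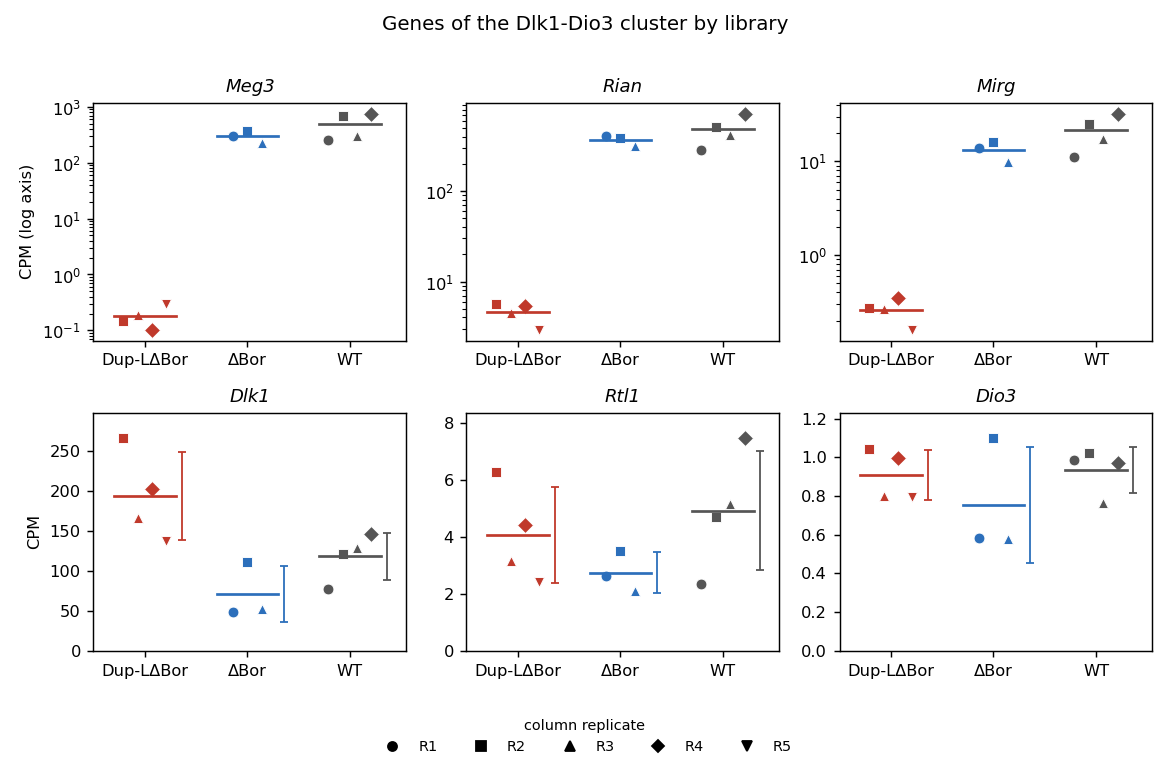
Levels in CPM of 6 genes of the Dlk1-Dio3 cluster in each library of Dup-LΔBor, ΔBor and WT (points shaped by column replicate, lines for means, bars in the lower panels for SD). The upper panels have log axes and show the maternally expressed RNAs Meg3, Rian and Mirg low in all 4 Dup-LΔBor libraries, and the lower panels have linear axes from 0.

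Genes of glycolysis and the hypoxia response were higher in Dup-LΔBor. Glycolysis turns glucose into pyruvate and lactate, and when oxygen is low the transcription factor HIF-1 raises its transporters and enzymes together with Vegfa and other genes. Of 35 tested members of this list, 29 were higher directly and 0 lower, beside 20.2% of all genes higher, and the median difference was 1.05 against 0.021 for all genes. After WT adjustment 4 passed in edgeR (25 at an unadjusted p under 0.05, 15 by DESeq2), with a median of 1.07 against 0.0113. With GC and length offsets the medians were 0.972 and 1.07, and 26 and 2 members passed.

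The promoter of Ldha is shown as that of a HIF-1 target whose gene rose here. The 250 bases before its RefSeq start are on the plus strand of GRCm38.p6 at chr7:46845554-46845803, and each ACGTG, the core letters of a hypoxia response element, or its reverse complement is in capitals.

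Ldha promoter: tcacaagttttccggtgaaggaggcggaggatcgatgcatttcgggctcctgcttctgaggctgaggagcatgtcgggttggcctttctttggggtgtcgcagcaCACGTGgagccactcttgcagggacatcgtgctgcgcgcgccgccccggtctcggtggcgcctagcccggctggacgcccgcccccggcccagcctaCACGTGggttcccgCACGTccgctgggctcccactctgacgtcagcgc

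These letters stand at 3 places, 2 of them palindromes that read ACGTG on both strands. They occur in 16.6% of all 32851 promoter windows and in 22 of the 47 windows (46.8%) of the 31 list genes found in the table. Windows outnumber genes, so some genes enter more than once, and the shares were not compared by a test. A match here too is a description of the letters only, and the part of HIF-1 in these differences was not tested.

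Ldha, which turns pyruvate into lactate, stood at 2382, 1434, 1198 and 1533 CPM in Dup-LΔBor R2 to R5, 544 and 577 CPM in ΔBor het and 633 CPM in ΔBor hom, and 891, 683, 830.1 and 784 CPM in WT R1 to R4. All 4 Dup-LΔBor libraries exceeded all other libraries, and R2 was highest. The direct difference was log2 1.49 (SE 0.18, edgeR adjusted p 7.92e-05) and the WT-adjusted one log2 1.45 (SE 0.30, edgeR adjusted p 0.0313). Ldha lost its WT-adjusted call without ΔBor het R1, Dup-LΔBor R3, WT R1, WT R3 or WT R4 (log2 1.20 to 1.63, edgeR adjusted p up to 0.118).

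Pfkl, the liver-type subunit of phosphofructokinase, stood at 771, 465, 388 and 436 CPM in Dup-LΔBor R2 to R5, 144 and 171 CPM in ΔBor het and 155 CPM in ΔBor hom, and 252, 207, 282 and 244 CPM in WT R1 to R4, again with R2 above the other 3. It rose by log2 1.72 directly and 1.52 WT-adjusted (edgeR adjusted p 7.02e-05 and 0.0344). The WT-adjusted p of Pfkl was 0.0571 with GC and length offsets. Pfkl lost its WT-adjusted call without ΔBor het R1, ΔBor hom, Dup-LΔBor R3, WT R1, WT R2, WT R3 or WT R4 (log2 1.25 to 1.66, edgeR adjusted p up to 0.114). Gapdh, the glycolytic dehydrogenase, stood at 1926, 1694, 1671 and 1434 CPM in Dup-LΔBor R2 to R5, 548 and 698 CPM in ΔBor het and 583 CPM in ΔBor hom, and 1077, 946, 1486 and 1225 CPM in WT R1 to R4. Its arms did not overlap, but Dup-LΔBor R5 lay below WT R3, and it rose by log2 1.46 directly and 1.04 WT-adjusted (edgeR adjusted p 4.24e-05 and 0.0223). Gapdh lost its WT-adjusted call without Dup-LΔBor R3 or WT R1 (log2 0.91 to 1.17, edgeR adjusted p up to 0.0553). Pkm2, read at 16.7 to 31.1 CPM in Dup-LΔBor, 6.8 to 7.72 CPM in ΔBor and 7.2 to 11.6 CPM in WT, rose by log2 1.60 directly and 1.45 WT-adjusted (edgeR adjusted p 1.07e-04 and 0.0465). The WT-adjusted p of Pkm2 was 0.107 with those offsets. Pkm2 lost its WT-adjusted call without ΔBor het R1, ΔBor hom, Dup-LΔBor R3, WT R1, WT R2 or WT R3 (log2 1.14 to 1.80, edgeR adjusted p up to 0.159). Pkm2, Gapdh and Eno1 have near-identical copies or a second entry in the table, so the split of their reads is uncertain.

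The other members named here were higher directly and did not pass after WT adjustment. Slc2a1, the main glucose transporter, was read at 193 to 496 CPM in Dup-LΔBor, 91.6 to 117 CPM in ΔBor and 137 to 147 CPM in WT, with log2 1.54 directly and 1.51 WT-adjusted (edgeR adjusted p 7.17e-04 and 0.0922). Slc16a3, which exports lactate, differed by log2 1.84 directly and 2.25 WT-adjusted (edgeR adjusted p 0.0012 and 0.056), and Vegfa, the growth factor for blood vessels, by log2 1.48 directly and 1.54 WT-adjusted (edgeR adjusted p 9.43e-04 and 0.0912). Adm, the vessel-dilating peptide adrenomedullin, had the largest direct difference of the list, with log2 2.12 directly and 2.76 WT-adjusted (edgeR adjusted p 0.00382 and 0.0835).

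Other steps of glycolysis were higher directly as well. Hk2, the first enzyme, differed by log2 1.28 directly and 1.22 WT-adjusted (edgeR adjusted p 0.00502 and 0.195), Tpi1, the triose isomerase, by log2 1.02 directly and 0.88 WT-adjusted (edgeR adjusted p 2.72e-04 and 0.0821), and Pgk1, a kinase of the payoff phase, by log2 0.95 directly and 0.69 WT-adjusted (edgeR adjusted p 7.11e-04 and 0.162). Eno1 differed by log2 1.82 directly and 1.57 WT-adjusted (edgeR adjusted p 4.06e-04 and 0.0974). Aldoa has no count in any of the 7 libraries in the table, so nothing can be read of it.

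The libraries differed in how far these genes went. Summed over the list the level was 13829 CPM in Dup-LΔBor R2, 8920.5 in R3, 7919.6 in R4 and 9301 in R5, against 4512 and 5054 in ΔBor het, 4885 in ΔBor hom and 5662 to 6522 in WT. Dup-LΔBor R2 was the highest of its group for 34 of the 35 members. Without R2, 26 members were higher and 1 lower directly, with a median of 0.765, and 8 passed after WT adjustment, with a median of 0.783. The WT-adjusted count was 0 without Dup-LΔBor R3, 7 without R4 and 5 without R5, with medians of 1.20, 1.24 and 1.10. In FPKM without a filter on low values it was 0, with a median of 0.846. When 1 WT library was left out the WT-adjusted median ran from 0.999 to 1.13. For 29 members all Dup-LΔBor libraries lay above all ΔBor libraries, beside 23.7% of all genes. For 17 all Dup-LΔBor libraries lay above all WT libraries, and for 12 all ΔBor libraries lay below all WT libraries. Shares over all genes were not computed for these counts against WT. In bulk RNA a difference in the share of cells and one in RNA per cell cannot be told apart.

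**Figure D4:**
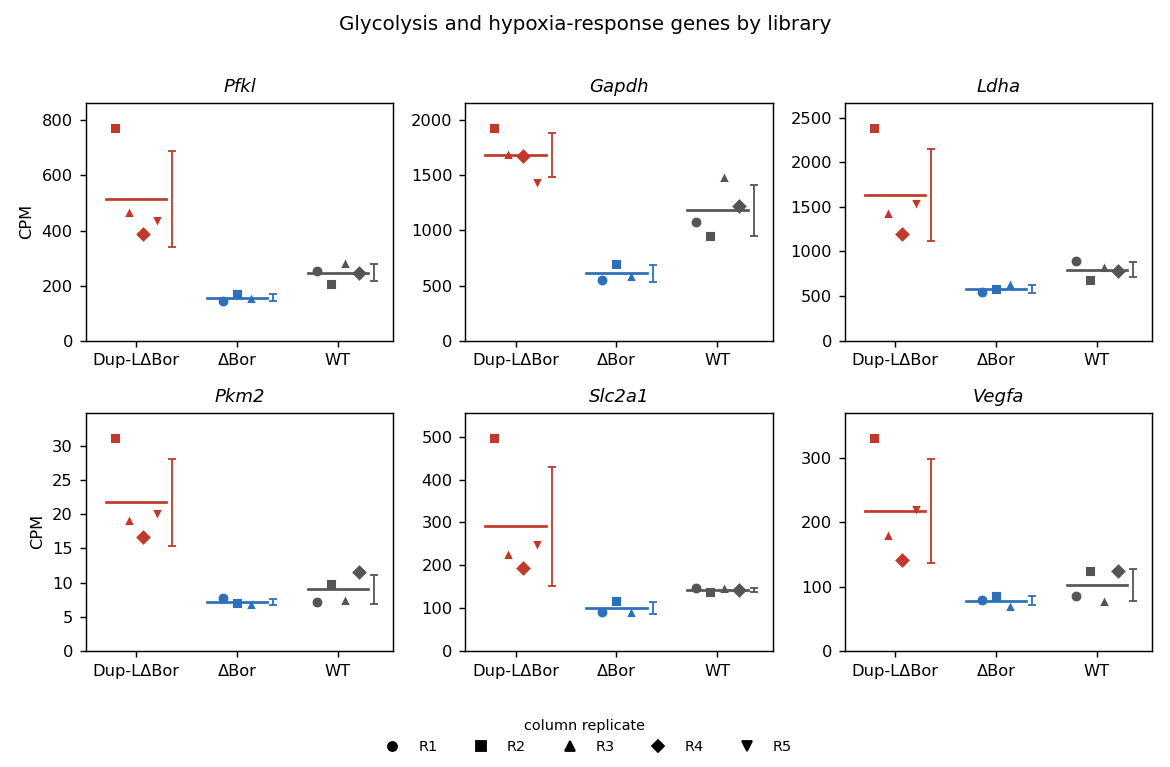
Levels in CPM of 6 glycolysis and hypoxia-response genes in each library of Dup-LΔBor, ΔBor and WT (points shaped by column replicate, lines for means, bars for SD, axes from 0). Dup-LΔBor R2 is the highest point in each panel, and the 3 other Dup-LΔBor libraries lie above all ΔBor libraries.

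By the naming rule, the 12 largest higher differences among 3777 eligible genes were mostly of genes with low levels. AK167606_gene led them, at 0.96, 2.35, 2.42 and 3.74 CPM in Dup-LΔBor R2 to R5, 0.0529 and 0.131 CPM in ΔBor het and 0 CPM in ΔBor hom, and 0.348, 0.413, 0.0952 and 0.611 CPM in WT R1 to R4, with log2 6.31 directly and 6.53 WT-adjusted (edgeR adjusted p 1.56e-04 and 0.0335). Its values spread within Dup-LΔBor, and WT lay between the arms. AK167606_gene lost its WT-adjusted call without ΔBor het R1, ΔBor hom, Dup-LΔBor R3, Dup-LΔBor R4, WT R1, WT R2 or WT R3 (log2 4.85 to 8.29, edgeR adjusted p up to 0.0949). Gabrd, the delta subunit of the GABA-A receptor, was at 0.459, 1.52, 1.47 and 1.54 CPM in Dup-LΔBor R2 to R5, 0 and 0.0784 CPM in ΔBor het and 0.0551 CPM in ΔBor hom, and 0.174, 0.269, 0.0952 and 0.389 CPM in WT R1 to R4, with R2 lowest in its group. It rose by log2 4.72 directly and 4.71 WT-adjusted (edgeR adjusted p 1.97e-04 and 0.0468). The WT-adjusted p of Gabrd was 0.0678 with GC and length offsets. Gabrd lost its WT-adjusted call without ΔBor het R1, ΔBor hom, Dup-LΔBor R3, Dup-LΔBor R4, WT R1, WT R2 or WT R3 (log2 3.91 to 6.57, edgeR adjusted p up to 0.15).

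Hoxa11as, which is transcribed opposite Hoxa11, stood at 2.25, 2.21, 2.1 and 3.24 CPM in Dup-LΔBor R2 to R5, 0.159 and 0.157 CPM in ΔBor het and 0.248 CPM in ΔBor hom, and 0.483, 0.897, 1.09 and 1.47 CPM in WT R1 to R4. The arms did not overlap and WT again lay between them, with log2 3.72 directly and 2.84 WT-adjusted (edgeR adjusted p 3.34e-05 and 0.0119). Hoxa11, which patterns the forearm segment, stood at 16.8 to 27.9 CPM in Dup-LΔBor, 52 to 64.4 CPM in ΔBor and 25.3 to 52.4 CPM in WT and differed by log2 -1.30 directly and -0.44 WT-adjusted (edgeR adjusted p 9.39e-04 and 0.319). The strand setting of the counting is not given, so reads of this pair cannot be told apart. Hoxa11as lost its WT-adjusted call without WT R3 (log2 2.33 to 3.20, edgeR adjusted p up to 0.0607).

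Abcc6, an ABC transporter gene, was read at 0.902 to 1.17 CPM in Dup-LΔBor, 0.0784 to 0.0826 CPM in ΔBor and 0.514 to 0.789 CPM in WT and rose by log2 3.67 directly and 3.90 WT-adjusted (edgeR adjusted p 1.39e-05 and 0.00106). Vmn2r29, a vomeronasal receptor gene of a multigene family, was read at 2.12 to 2.88 CPM in Dup-LΔBor, 0.212 to 0.34 CPM in ΔBor and 1.62 to 2.53 CPM in WT and rose by log2 3.10 directly and 2.93 WT-adjusted (edgeR adjusted p 4.18e-06 and 0.00125). Lgals7, which encodes the epithelial galectin-7, stood at 9.33, 11.2, 10.7 and 11.4 CPM in Dup-LΔBor R2 to R5, 1.4 and 1.23 CPM in ΔBor het and 1.18 CPM in ΔBor hom, and 8.5, 8.23, 15.9 and 11.1 CPM in WT R1 to R4. For these 3 genes it was ΔBor that lay below WT, while Dup-LΔBor and WT overlapped for Vmn2r29 and Lgals7. Lgals7 rose by log2 3.07 directly and 2.38 WT-adjusted (edgeR adjusted p 3.17e-06 and 4.56e-04). Abcc6, Vmn2r29 and Lgals7 passed without each library in turn.

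Rab6b, a small GTPase gene of Golgi transport, stood at 19.8, 21.3, 21 and 21.8 CPM in Dup-LΔBor R2 to R5, 3.89 and 4.55 CPM in ΔBor het and 2.7 CPM in ΔBor hom, and 14.7, 15.9, 5.6 and 20.9 CPM in WT R1 to R4 and rose by log2 2.53 directly and 2.75 WT-adjusted (edgeR adjusted p 1.42e-04 and 0.0284). Rab6b lost its WT-adjusted call without ΔBor het R1, ΔBor hom, Dup-LΔBor R3, Dup-LΔBor R4, WT R1 or WT R2 (log2 2.06 to 3.98, edgeR adjusted p up to 0.0748). EG633640, a gene model named after its identifier, stood at 1.52 to 1.96 CPM in Dup-LΔBor, 0.183 to 0.33 CPM in ΔBor and 0.278 to 0.52 CPM in WT and rose by log2 2.82 directly and 3.41 WT-adjusted (edgeR adjusted p 8.71e-05 and 0.0113). EG633640 lost its WT-adjusted call without WT R3 (log2 3.04 to 3.67, edgeR adjusted p up to 0.0598). Hist3h2bb-ps, a histone pseudogene, was at 1.89 to 2.44 CPM in Dup-LΔBor, 0.159 to 0.444 CPM in ΔBor and 1.02 to 1.5 CPM in WT and rose by log2 2.94 directly and 2.71 WT-adjusted (edgeR adjusted p 3.12e-05 and 0.00962). Hist3h2bb-ps lost its WT-adjusted call without WT R3 (log2 2.43 to 3.24, edgeR adjusted p up to 0.0551). Both may share reads with related copies.

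Fbxo44, Fbxo2 and Fxy were higher directly and did not pass after WT adjustment. Fbxo44, which encodes an F-box protein of a ubiquitin ligase, stood at 23.4, 20.4, 20.8 and 20.4 CPM in Dup-LΔBor R2 to R5, 1.38 and 1.54 CPM in ΔBor het and 1.38 CPM in ΔBor hom, and 13.8, 16.6, 1.14 and 18.4 CPM in WT R1 to R4. WT R3 shared the low ΔBor level and the other 3 WT libraries did not, and the gene differed by log2 3.89 directly and 4.56 WT-adjusted (edgeR adjusted p 0.00184 and 0.0617). Its neighbour Fbxo2 differed by log2 2.80 directly and 3.09 WT-adjusted (edgeR adjusted p 0.00109 and 0.0639), also with WT R3 the lowest WT library, at 0.438 CPM. Fxy, an X-linked gene entry, differed by log2 3.63 directly and 4.37 WT-adjusted (edgeR adjusted p 0.00137 and 0.0597).

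Of the 12 largest lower differences, Meg3, AF357359, AF357425_gene, Rian and Mirg are described above. Klk1b22, one of the tandem kallikrein genes, had 93 and 72 counts in ΔBor het, 184 in ΔBor hom and 0 in all Dup-LΔBor and WT libraries. It was at least 44.3-fold lower in Dup-LΔBor, taking 3 counts per library as the floor, and with WT at 0 in both ranges no WT adjustment could be estimated. AF365933_gene was also near 0 in WT, at 0 to 0.0417 CPM in Dup-LΔBor, 0.496 to 2.42 CPM in ΔBor and 0 to 0.0193 CPM in WT, and differed by log2 -5.99 directly and -6.19 WT-adjusted (edgeR adjusted p 3.17e-05 and 0.229). Arhgap33os, antisense to Arhgap33, was high in ΔBor alone, at 0.053 to 0.271 CPM in Dup-LΔBor, 1.98 to 2.98 CPM in ΔBor and 0.0278 to 0.0952 CPM in WT, and differed by log2 -3.95 directly and -4.44 WT-adjusted (edgeR adjusted p 4.84e-05 and 0.0698).

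RP23-282C23.3, a gene model named after a clone, stood at 0.167, 0.187, 0.0815 and 0.239 CPM in Dup-LΔBor R2 to R5, 30.0 and 21.3 CPM in ΔBor het and 29.1 CPM in ΔBor hom, and 0.483, 0.341, 10.8 and 0.139 CPM in WT R1 to R4. WT R3 was again the WT library nearest ΔBor, and the gene fell with log2 -7.33 directly and -11.09 WT-adjusted (edgeR adjusted p 0.00268 and 0.0167). RP23-282C23.3 lost its WT-adjusted call without WT R1, WT R2 or WT R3 (log2 -12.03 to -5.80, edgeR adjusted p up to 0.0794). Xlr3b, an imprinted X-linked gene, was lower in Dup-LΔBor than in ΔBor and WT, at 0.25, 0.40, 0.285 and 0.212 CPM in Dup-LΔBor R2 to R5, 4.71 and 7.21 CPM in ΔBor het and 3.8 CPM in ΔBor hom and at least 3.26 CPM in WT, with log2 -4.16 directly and -4.72 WT-adjusted (edgeR adjusted p 0.00127 and 0.0577). Afp, the fetal albumin-like protein of liver and yolk sac, was at 0.125, 0.107, 0.0815 and 0 CPM in Dup-LΔBor R2 to R5, 0.529 and 8.96 CPM in ΔBor het and 0.468 CPM in ΔBor hom, and 8.01, 1.38, 2.63 and 0.50 CPM in WT R1 to R4. ΔBor het R2 held most of its ΔBor level, and the difference was log2 -4.71 directly and -3.18 WT-adjusted (edgeR adjusted p 0.019 and 0.344).

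Genes that passed after WT adjustment were unevenly spread over the chromosomes, from 0.665% of tested genes on chromosome 18 to 4.65% (37 genes) on chromosome 17, 4.59% (46) on chromosome 4, 3.86% (48) on chromosome 7 and 3.49% (20) on chromosome 12. On chromosome 7, 40 rose and 8 fell. On chromosome 4, 23 of the 46 lay at its end. Of the last 200 tested genes there, in GRCm38 order, 23 passed after WT adjustment (11.5%) against 23 of the other 803 (2.86%), and 106 (53.0%) passed directly. This stretch was chosen after its values were seen. In this stretch 11 genes rose and 11 fell.

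A run of KRAB zinc finger genes, whose family silences retrotransposons, fell there. Zfp534 stood at 0.0626, 0.0534, 0 and 0 CPM in Dup-LΔBor R2 to R5, 7.62 and 3.94 CPM in ΔBor het and 6.0 CPM in ΔBor hom, and 0.0386, 0.0359, 1.98 and 0.0555 CPM in WT R1 to R4, with log2 -7.52 directly and -12.26 WT-adjusted (edgeR adjusted p 0.00151 and 0.0051). Zfp534 lost its WT-adjusted call without WT R3 (log2 -13.15 to -8.07, edgeR adjusted p up to 0.133). Zfp600 stood at 0.25, 0.267, 0.285 and 0.159 CPM in Dup-LΔBor R2 to R5, 3.12 and 2.59 CPM in ΔBor het and 2.59 CPM in ΔBor hom, and 0.328, 0.233, 1.12 and 0.75 CPM in WT R1 to R4, with log2 -3.49 directly and -5.24 WT-adjusted (edgeR adjusted p 7.25e-05 and 2.61e-05), and Rex2 at 0.106 to 0.326 CPM in Dup-LΔBor, 2.15 to 2.96 CPM in ΔBor and 0.197 to 1.03 CPM in WT, with log2 -3.30 directly and -5.08 WT-adjusted (edgeR adjusted p 1.47e-04 and 4.56e-04). The last 2 passed without each library in turn. These genes belong to a family of close copies, so reads may be shared among them. In all 3 the ΔBor libraries were high, the Dup-LΔBor libraries were near 0, and WT R3 was the highest WT library.

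Masp2, a protease of the lectin pathway of complement, showed the same order, at 0.209, 0.294, 0.387 and 0.0796 CPM in Dup-LΔBor R2 to R5, 2.2 and 2.25 CPM in ΔBor het and 1.84 CPM in ΔBor hom, and 0.193, 0.269, 2.47 and 0.361 CPM in WT R1 to R4, and fell with log2 -3.07 directly and -5.71 WT-adjusted (edgeR adjusted p 0.00662 and 0.0085). Cort, which encodes the neuropeptide cortistatin, stood at 0.106 to 0.355 CPM in Dup-LΔBor, 1.64 to 1.95 CPM in ΔBor and 0.348 to 1.37 CPM in WT and fell with log2 -2.74 directly and -4.08 WT-adjusted (edgeR adjusted p 5.36e-04 and 0.00947). Masp2 lost its WT-adjusted call without WT R3 (log2 -6.46 to -3.71, edgeR adjusted p up to 0.0522). Cort lost its WT-adjusted call without WT R3 (log2 -4.65 to -2.96, edgeR adjusted p up to 0.0845). Among the genes that rose were Mxra8, which encodes a matrix-associated adhesion protein, and Klhl17, a BTB-kelch gene. Mxra8 stood at 31.5, 30.2, 32.8 and 25.4 CPM in Dup-LΔBor R2 to R5, 4.18 and 8.31 CPM in ΔBor het and 6.42 CPM in ΔBor hom, and 12, 17.9, 12.53 and 25.9 CPM in WT R1 to R4, with log2 2.25 directly and 1.89 WT-adjusted (edgeR adjusted p 1.11e-04 and 0.0478). For Mxra8 the WT-adjusted p was 0.0534 with GC and length offsets. Mxra8 lost its WT-adjusted call without ΔBor het R1, ΔBor hom, Dup-LΔBor R2, Dup-LΔBor R3, Dup-LΔBor R4, WT R1, WT R2 or WT R3 (log2 1.44 to 2.50, edgeR adjusted p up to 0.14). Klhl17 stood at 132, 122, 123 and 114 CPM in Dup-LΔBor R2 to R5, 40.8 and 43.8 CPM in ΔBor het and 39 CPM in ΔBor hom, and 50.7, 69.8, 73.7 and 101 CPM in WT R1 to R4, with log2 1.58 directly and 1.05 WT-adjusted (edgeR adjusted p 6.00e-05 and 0.0282). Klhl17 lost its WT-adjusted call without ΔBor het R1, Dup-LΔBor R2, Dup-LΔBor R3, Dup-LΔBor R4, WT R2 or WT R3 (log2 0.80 to 1.29, edgeR adjusted p up to 0.116).

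In this stretch 22 genes passed in both comparisons. For 20 of them, all but Gm13157 and Klhl17, WT R3 lay nearer to the ΔBor than to the Dup-LΔBor mean, on the log2(CPM + 0.1) scale. WT R3 enters the WT-adjusted difference that picked these genes, and a WT R3 value near ΔBor enlarges it. The count is therefore no separate evidence, and the share over all genes was not computed. Without WT R3, 8 genes of the stretch passed after WT adjustment, and over all alternatives the count ran from 8 to 46.

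**Figure D5:**
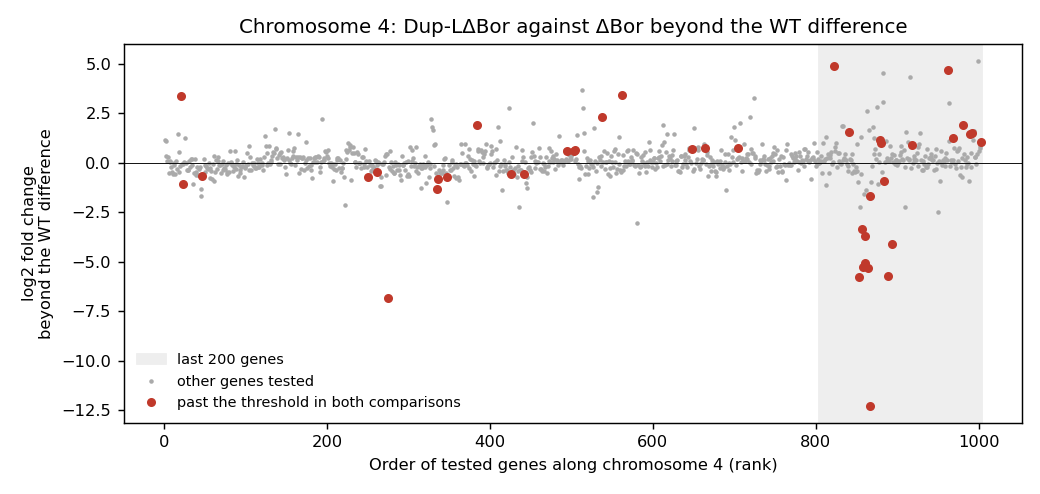
WT-adjusted log2 fold change of the tested genes of chromosome 4, in their order along the chromosome, with genes past the threshold in both comparisons in red and the last 200 genes shaded. The shaded stretch holds 22 of the red points, 11 above and 11 below 0.

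Of 41 tested imprinted genes outside the Dlk1-Dio3 cluster, 9 were higher and 3 lower directly (29.3%, beside 40.7% of all genes), and 2 passed in both comparisons, beside 2.20% of all genes. Igf2, the paternally expressed fetal growth factor, stood at 5600.1, 4463, 4525 and 3973 CPM in Dup-LΔBor R2 to R5, 2576 and 3088 CPM in ΔBor het and 2807 CPM in ΔBor hom, and 2969.8, 3164, 2439 and 2580.2 CPM in WT R1 to R4. All 4 Dup-LΔBor libraries exceeded all other libraries. The direct difference was log2 0.72 (SE 0.13, edgeR adjusted p 6.81e-04) and the WT-adjusted one log2 1.01 (SE 0.18, edgeR adjusted p 0.0184). Igf2 lost its WT-adjusted call without WT R3 (log2 0.89 to 1.08, edgeR adjusted p up to 0.0845). Slc22a18, a maternally expressed transporter gene of the same chromosome 7 region, stood at 1.73 to 2.05 CPM in Dup-LΔBor, 0.633 to 0.784 CPM in ΔBor and 0.762 to 1.33 CPM in WT and rose by log2 1.34 directly and 1.59 WT-adjusted (edgeR adjusted p 7.74e-04 and 0.04995). The WT-adjusted p of Slc22a18 was 0.0797 with GC and length offsets. Slc22a18 lost its WT-adjusted call without ΔBor het R1, ΔBor hom, Dup-LΔBor R2, Dup-LΔBor R3, Dup-LΔBor R4, WT R2 or WT R3 (log2 1.24 to 1.86, edgeR adjusted p up to 0.167). H19, the maternal partner of Igf2, has no count in any of the 7 libraries in the table.

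The share of limb patterning genes that passed directly was below that of all genes. Of 84 tested in 6 lists, 7 were higher and 22 lower directly (34.5%, beside 40.7% of all genes). After WT adjustment 16 were at an unadjusted p under 0.05, beside 3849 of 17655 genes, and DESeq2 called 4, beside 7.86% of its genes. In edgeR 1 passed after WT adjustment, beside 2.31% of all genes. That gene was Bmp7, a ligand of the bone morphogenetic proteins made in the limb ectoderm and interdigital tissue, at 285, 324, 320.3 and 279 CPM in Dup-LΔBor R2 to R5, 85.6 and 103 CPM in ΔBor het and 79.7 CPM in ΔBor hom, and 124, 135, 216 and 279.7 CPM in WT R1 to R4. The ΔBor libraries were lowest and WT R4 reached the Dup-LΔBor level. Bmp7 rose with a direct difference of log2 1.76 (SE 0.23, edgeR adjusted p 1.65e-04) and a WT-adjusted one of log2 0.82 (SE 0.17, edgeR adjusted p 0.0282). Bmp7 lost its WT-adjusted call without ΔBor hom, Dup-LΔBor R3, Dup-LΔBor R4, WT R2 or WT R3 (log2 0.63 to 1.02, edgeR adjusted p up to 0.122). With GC and length offsets its adjusted p was 0.057.

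Several transcription factor genes of the limb were lower directly while WT R3 and R4 were also lower than WT R1 and R2. Dlx5, of the distal limb and ridge, stood at 9.85, 9.37, 6.64 and 7.48 CPM in Dup-LΔBor R2 to R5, 14.5 and 19.5 CPM in ΔBor het and 17.9 CPM in ΔBor hom, and 23.7, 19.1, 11.2 and 8.19 CPM in WT R1 to R4 and differed by log2 -1.05 directly and 0.09 WT-adjusted (edgeR adjusted p 0.0104 and 0.878). Shox2, which patterns the upper limb segment, stood at 35.2 to 61.8 CPM in Dup-LΔBor, 81.7 to 133 CPM in ΔBor and 54.4 to 103 CPM in WT and differed by log2 -1.08 directly and -0.28 WT-adjusted (edgeR adjusted p 0.00916 and 0.709). Tbx3, of the anterior and posterior margins, differed by log2 -0.82 directly and -0.17 WT-adjusted (edgeR adjusted p 0.00245 and 0.654). Thus their direct differences were mostly matched by the WT pairs. Hand1, a transcription factor gene of the anterior limb bud, was higher directly, at 2.53 to 4.13 CPM in Dup-LΔBor, 0.413 to 2.14 CPM in ΔBor and 2.44 to 5.09 CPM in WT, with log2 1.96 directly and 2.22 WT-adjusted (edgeR adjusted p 0.00166 and 0.0739).

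Of 59 tested genes of cartilage, bone, joint and tendon, 6 were higher and 5 lower directly (18.6%, beside 40.7% of all genes) and 0 passed after WT adjustment in edgeR, beside 2.31% of all genes (5 at an unadjusted p under 0.05, 1 by DESeq2). Fgfr3, a growth factor receptor of chondrocytes, stood at 141, 109, 92.7 and 110.5 CPM in Dup-LΔBor R2 to R5, 47.6 and 57 CPM in ΔBor het and 46.4 CPM in ΔBor hom, and 56.2, 87.6, 59.1 and 95.5 CPM in WT R1 to R4 and differed by log2 1.17 directly and 1.07 WT-adjusted (edgeR adjusted p 8.25e-04 and 0.122). Comp, a cartilage matrix glycoprotein, differed by log2 1.85 directly and 1.41 WT-adjusted (edgeR adjusted p 0.0153 and 0.372). Summed levels of the cartilage list were 2307 to 3419 CPM in Dup-LΔBor, 2011 to 2463 CPM in ΔBor and 1733 to 3023 CPM in WT.

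Markers of other cell types held 104 tested genes, of which 16 were higher and 8 lower directly (23.1%, beside 40.7% of all genes) and 0 passed after WT adjustment in edgeR (17 at an unadjusted p under 0.05, 7 by DESeq2). Summed levels of skeletal muscle markers (25 of 26 tested) were 778 to 1733 CPM in Dup-LΔBor, 550.3 to 1079 CPM in ΔBor and 747 to 1683 CPM in WT. Blood markers (11 of 16) were at 2154 to 3475, 3096 to 6309 and 1794 to 5037 CPM in the same order. Their globin genes Hbb-b1, Hbb-b2 and Hba-a2 have no count in the 7 libraries, so these sums leave out most haemoglobin RNA. Endothelial markers (17 of 17) were at 497 to 631, 391 to 545 and 463 to 584 CPM. Both arms overlapped in all 3 lists, and the groups also overlapped WT.

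Macrophage markers (14 of 16, with Adgre1 and its older entry Emr1 at 0) summed to 83.6 to 100.4 CPM in Dup-LΔBor. They summed to 75.8 to 92.7 CPM in ΔBor and 91.3 to 108.7 CPM in WT. Nerve and glia markers (17 of 17) summed to 145 to 171, 117 to 159 and 172.7 to 197.7 CPM in the same order. Surface ectoderm markers (20 of 21, with Tfap2b at 0) summed to 944 to 1198, 927 to 1053 and 1055 to 1575 CPM. These arms overlapped too, but the WT sums of nerve and glia markers lay above both arms. The WT sums of surface ectoderm markers lay above ΔBor. The part of cell composition in the gene results above was not tested.

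Among genes that every cell uses, the 22 cell cycle genes held 4 higher and 6 lower directly (45.5%, beside 40.7% of all genes) and 0 after WT adjustment, beside 2.31% of all genes (4 at an unadjusted p under 0.05, 1 by DESeq2). Mki67, the proliferation antigen, stood at 639 to 728 CPM in Dup-LΔBor, 969 to 1197 CPM in ΔBor and 697 to 1017 CPM in WT and differed by log2 -0.69 directly and -0.41 WT-adjusted (edgeR adjusted p 5.60e-04 and 0.192). Of 51 tested genes of the ribosomal protein list, 16 were higher and 9 lower directly (49.0%) and 0 passed after adjustment in edgeR (10 at an unadjusted p under 0.05, 3 by DESeq2). Rpl13a, a ribosomal protein gene that is not on that list, rose and is described below. Nuclear genes of the respiratory chain numbered 49, with 19 higher and 10 lower directly (59.2%). One of them fell after adjustment too, Uqcrc2, a core subunit of complex III, at 165 to 190.2 CPM in Dup-LΔBor, 214 to 251 CPM in ΔBor and 161 to 210.4 CPM in WT, with log2 -0.37 directly and -0.56 WT-adjusted (edgeR adjusted p 0.00435 and 0.0449). Both calls of Uqcrc2 ended with GC and length offsets, at log2 -0.11 directly and -0.33 WT-adjusted (edgeR adjusted p 0.301 and 0.146). Uqcrc2 lost its WT-adjusted call without ΔBor het R1, ΔBor hom, Dup-LΔBor R2, Dup-LΔBor R3, Dup-LΔBor R4, WT R2 or WT R3 (log2 -0.71 to -0.44, edgeR adjusted p up to 0.151).

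Of 13 histone genes tested 2 were higher and 6 lower directly (61.5%, beside 40.7% of all genes). Of these 13 genes 1 rose, beside 1.19% of all genes. This was Hist1h4c, a replication-dependent H4 gene whose RNA largely lacks a polyA tail, at 0.318 to 0.694 CPM in Dup-LΔBor, 0.0261 to 0.138 CPM in ΔBor and 0.343 to 0.592 CPM in WT, with log2 3.05 directly and 3.40 WT-adjusted (edgeR adjusted p 1.94e-04 and 0.0184). Its levels were low, and ΔBor lay below all other libraries. Hist1h4c lost its WT-adjusted call without WT R3 (log2 2.91 to 3.97, edgeR adjusted p up to 0.0773).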

How the data were processed

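PolyA RNA of limb buds at stage E12.5 was sequenced from TruSeq RNA V2 libraries, per the labels' protocols. The authors deposited raw counts per gene for 34682 genes, 10244 of them at 0 in all libraries, and FPKM values of the same genes, which the authors rounded. STAR, DESeq2, bedtools 2.17.0 and the build mm9 are named per the submitters' processing notes, with the counting tool, the annotation and the handling of strand not given in the sources used here. The 2 fingertip samples of another age were not analysed here.

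The 15 libraries of 6 groups entered the fit of the direct difference in edgeR 4.0.16 (R 4.3.3, limma 3.58.1). TMM scaling, filterByExpr and robust quasi-likelihood were used, which left 17655 genes. A separate fit of the same libraries and genes, with WT split by library-number range, gave the WT range and WT-adjusted differences. ΔBor was weighted 2 parts het to 1 part hom, tests were two-sided, and both fits were tested on simulated data. Alternatives were DESeq2 1.42.0 and its size factors, no count filter, GC and length offsets (splines of 5 degrees of freedom), limma on log2(FPKM + 1) and log2(FPKM + 0.1) with and without a minimum mean FPKM of 0.5, ΔBor as 1 group, het or hom alone, the 7 libraries alone, and each library left out.

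The genes named are the 12 higher and 12 lower with the largest direct difference among those past 0.05, with a mean of at least 1 CPM in an arm, no overlap of the arms and a WT-adjusted value of the same sign at least 0.5 times as large (names of the form Gm and digits, ending in Rik or a copy suffix, and Mir and Snor names left out), the locus and cluster genes, and up to 4 members per list. Members, lists and tests were chosen with earlier results of these data known. Chromosomes and neighbour order came by symbol from GRCm38, which gave a chromosome to 92.0% of tested genes, and GC content and length to 91.4%. Sequences are from RefSeq on GRCm38.p6. A fitted fold change for a gene with few counts depends on edgeR's prior count. Some members of the lists are counted and not reported by name here.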

Additional observations from a re-analysis of the deposited data

Results flagged for a closer look

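In 12 of 159 groups of 4 libraries, over the genes named, 1 library stood apart from the other 3 by Dixon's ratio (its gap to the nearest library over the whole range). Chance alone gives about 1 group in 20. WT R3 was the library apart in 7 of the 12. The genes were named partly by WT-adjusted values, which WT R3 enters, so 1 group in 20 is only a rough guide.

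In Dup-LΔBor, R2 was the lowest for Gabrd (ratio 0.933), at 0.459 CPM against 1.47 to 1.54 CPM. R2 was the highest for Fbxo44 (0.857), at 23.4 CPM against 20.4 to 20.8 CPM, and for Slc22a18 (0.864), at 2.05 CPM against 1.73 to 1.78 CPM. R5 was the highest for Hoxa11as (0.862), at 3.24 CPM against 2.10 to 2.25 CPM.

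In WT, R3 was the highest for Zfp534 (0.99), RP23-282C23.3 (0.968), Cort (0.933), Masp2 (0.926) and Gpr137b (0.873). Its values there were 1.98 CPM for Zfp534 against 0.0359 to 0.0555 CPM, 10.8 CPM for RP23-282C23.3 against 0.139 to 0.483 CPM, 1.37 CPM for Cort against 0.348 to 0.417 CPM, 2.47 CPM for Masp2 against 0.193 to 0.361 CPM and 24.6 CPM for Gpr137b against 19.1 to 19.8 CPM. R3 was the lowest for Hist1h4c (0.872), at 0.343 CPM against 0.560 to 0.592 CPM, and for Gpr137b-ps (0.865), at 20.5 CPM against 26.5 to 27.5 CPM. WT R1 was the lowest for Apoe (0.857), at 43.2 CPM against 52.0 to 53.5 CPM. Zfp534, Cort and Masp2 lie among the last 200 tested genes of chromosome 4. The WT-adjusted differences of these genes rest on 2 WT libraries per range, of which R3 is 1.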

How the results depend on the processing

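No paired analysis was possible because the Dup-LΔBor columns carry no replicate number that matches the labels and the ΔBor groups share fewer than 2 numbers with them. The direct comparison called 7192 genes, and 4207 against ΔBor hom alone, its other alternatives staying within 1.5 times of 7192, with 5587 to 7122 when 1 library was left out. The WT pairs differed at 690 genes, at 1298 with GC and length offsets, and at 88 to 701 without 1 WT library (111 without WT R1, 88 without WT R3). The WT-adjusted count of 408 was less stable, at 1250 by DESeq2, 157 in FPKM with no filter on low values, 230 against ΔBor het alone and 48 against ΔBor hom alone. Leaving out 1 library gave 62 to 1342 genes, the lowest without WT R3 and the highest without ΔBor het R2. The other values were 194 without ΔBor het R1, 221 without ΔBor hom, 182, 91, 172 and 757 without Dup-LΔBor R2 to R5, and 244, 182 and 563 without WT R1, R2 and R4. The cause was not tested. Each WT range pairs a Pitx1-high with a Pitx1-low library. In the fits without a WT library, range and limb type therefore cannot be told apart in WT. The split of 218 higher and 190 lower genes became 384 and 179 without WT R4 and 179 and 262 in FPKM.

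Direct values that changed sign, none past the threshold, were those of Map2k6 with GC and length offsets (0.038) and of Kcnj2 against ΔBor hom alone (-0.14). Of the WT-adjusted values, Dlx5 turned to -0.035 with those offsets, and ran from -0.11 (without WT R4) to 0.32 over the libraries left out, with -0.0404 without ΔBor het R1, -0.021 without Dup-LΔBor R2 and -0.097 without WT R1. Rtl1 turned to 0.14 against ΔBor hom alone and ran from -0.82 to 0.16 (without WT R1), with 0.049 without WT R4. Sox9 ran from -0.072 (without Dup-LΔBor R2) to 0.12, with -0.024 without WT R4, and BC006965 from -1.20 to 0.40 (without WT R4).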

Other observations

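Genes of sterol synthesis and uptake, which are raised together by SREBP transcription factors when membrane sterol is low, were mostly higher in Dup-LΔBor. A list of 32 such genes was written after their values were seen and carries no test. Of 31 tested, 22 were higher and 0 lower directly, beside 20.2% of all genes higher. Of the 31, 10 passed as higher in both comparisons, beside 1.19% of all genes. Members that did not pass directly included the enzyme genes Idi1 (log2 -0.45), Hsd17b7 (-0.27), Msmo1 (-0.16), Sqle (-0.03) and Cyp51 (-0.02). Sc4mol, an older entry of Msmo1 at lower levels, was higher directly (log2 1.105, edgeR adjusted p 0.0015). The list counts this gene under both entries. The median difference was 0.393 directly and 0.462 after WT adjustment, and -0.0636 between the WT pairs. With GC and length offsets 11 passed in both, with a WT-adjusted median of 0.459. Insig1, which retains the SREBP complex in the endoplasmic reticulum, rose by log2 0.85 directly and 0.80 WT-adjusted (edgeR adjusted p 8.33e-05 and 0.0313). Among the enzymes Mvd rose by log2 0.90 directly and 0.89 WT-adjusted (edgeR adjusted p 3.70e-05 and 0.0122), Dhcr7 by log2 0.85 directly and 0.80 WT-adjusted (edgeR adjusted p 2.81e-05 and 0.00967) and Lss by log2 0.70 directly and 0.72 WT-adjusted (edgeR adjusted p 1.12e-04 and 0.0284). Dhcr7 passed without each library in turn, while the calls of Insig1, Mvd and Lss ended without 1 or more single libraries. The number of list genes past the WT-adjusted threshold was 0 against ΔBor hom alone, 2 without WT R3, 3 without Dup-LΔBor R3 or without WT R1, 4 in FPKM without a filter on low values and 5 without Dup-LΔBor R2.

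The genes of 1 near-identical pair moved in opposite directions. Gpr137b, a lysosomal membrane protein gene, was read at 20.1 to 21.6 CPM in Dup-LΔBor, 27 to 34.1 CPM in ΔBor and 19.1 to 24.6 CPM in WT and fell with log2 -0.51 directly and -0.73 WT-adjusted (edgeR adjusted p 0.00191 and 0.0389). Gpr137b lost its WT-adjusted call without ΔBor het R1, Dup-LΔBor R2, Dup-LΔBor R3, Dup-LΔBor R4, WT R1, WT R2 or WT R3 (log2 -0.87 to -0.57, edgeR adjusted p up to 0.144). Its copy Gpr137b-ps was read at 25.5 to 29.7 CPM in Dup-LΔBor, 10.9 to 22 CPM in ΔBor and 20.5 to 27.5 CPM in WT and rose with log2 0.90 directly and 1.12 WT-adjusted (edgeR adjusted p 1.04e-04 and 0.00755), and passed without each library in turn. No source used here says how the authors' counting split the reads of the pair. A further 4 genes, chosen after their values were seen, passed in both comparisons. Gapdhs, the sperm form of Gapdh, rose by log2 2.15 directly and 1.18 WT-adjusted (edgeR adjusted p 1.03e-04 and 0.0455, and 0.0915 after WT adjustment with GC and length offsets). Apoe, a lipid carrier of macrophages and glia, rose by log2 1.10 directly and 0.98 WT-adjusted (edgeR adjusted p 7.25e-05 and 0.0313). Rpl13a, a ribosomal protein gene with many copies, rose by log2 1.34 directly and 0.96 WT-adjusted (edgeR adjusted p 6.00e-05 and 0.0348). Sepp1, the selenium carrier, fell with log2 -0.67 directly and -0.89 WT-adjusted (edgeR adjusted p 2.66e-04 and 0.0166). Each of these 4 WT-adjusted calls ended without 1 or more single libraries, among them WT R3 for all but Rpl13a.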
